A study of Mus musculus with 36 samples.

Results

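The RNA of 10 genes of insulin signalling and glucose entry was followed in mouse embryonic fibroblasts (MEFs) that lacked a mitofusin, before and during adipogenic differentiation. The genes were chosen by name for their place in the pathway: the glucose transporters Slc2a1 and Slc2a4, the insulin receptor Insr, the adaptors Irs1 and Irs2, the phosphoinositide 3-kinase subunits Pik3r1 and Pik3ca, the kinases Akt1 and Akt2, and the transcription factor Foxo1. They are 10 of the 14761 genes in the table. All 10 had at least 10 normalized counts in at least 3 of the 36 libraries, as did 14293 genes in all, and these were tested together.

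Mfn1-/- MEFs were sequenced at day -2, 0, +3 and +8 beside wild-type (WT) libraries A to C of the same days, and Mfn2-/- MEFs at day -2 and +8 beside WT libraries D to F. This gave 12 groups of 3 libraries, which the labels call independent biological replicates. Mfn1 and Mfn2 encode mitofusins, GTPases that join the outer membranes of neighbouring mitochondria. All cells reached confluence at day -2 and received insulin, dexamethasone, 3-isobutyl-1-methylxanthine, rosiglitazone, biotin and pantothenic acid at day 0, and the same mix without dexamethasone and 3-isobutyl-1-methylxanthine on day +2, +4 and +6, so knockout and WT cells alike had been given insulin by day +3 and day +8. Each genotype is 1 MEF line from a cell bank, so that genotype and line cannot be told apart.

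In adipocytes, insulin binds a receptor tyrosine kinase, Insr, which phosphorylates the adaptors Irs1 and Irs2. The adaptors draw in phosphoinositide 3-kinase, whose regulatory subunit is encoded by Pik3r1 and whose catalytic subunit by Pik3ca, and the lipid it makes brings Akt1 and Akt2 to the membrane. Akt kinases send vesicles with the transporter GLUT4 (Slc2a4) to the cell surface and keep Foxo1 out of the nucleus, while GLUT1 (Slc2a1) carries glucose in most cells without insulin. Only RNA was measured here, not protein, phosphorylation or glucose uptake.

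Total reads per library ran from 8800674 to 37011894. Mfn1 RNA fell in Mfn1-/- MEFs to 12.8% of WT at day -2, 24.3% at day 0 and 18.8% at day +3. At day +8 it stood at 1152, 754 and 647 normalized counts in the libraries labelled Mfn1-/-, against 841, 820 and 919 in WT (log2 fold change -0.06, SE 0.14, limma adjusted p = 0.745), so this comparison is of libraries by their label. The 13 genes that were at or below 1% of WT in Mfn1-/- MEFs at day -2, 0 and +3 were at most at 0.603% of WT in these libraries too. Mfn2 RNA stood at 24.0% of WT at day -2 and at 25.4% at day +8 in Mfn2-/- MEFs. The summed fibroblast markers (9 of 10 in the table) were at 90515 to 96714 in Mfn2-/- MEFs against 200375 to 218329 in WT at day -2, where 1 rose and 4 fell. The collagen gene Col1a2, at 149 in Mfn2-/- MEFs and 73593 in WT, made much of that gap, while Col3a1 was higher, at 26119 in Mfn2-/- MEFs and 12299 in WT. At day +8 the sums were 152145 to 262299 in the libraries labelled Mfn1-/-, against 309185 to 563578 in WT, and 84480 to 90447 in Mfn2-/- MEFs, against 304710 to 343785 in WT, with 5 of the 9 called lower in each line. The 7 mesothelial markers in the table (of 9 listed) summed to 34892 to 39022 in Mfn2-/- MEFs against 1316 to 1382 in WT at day -2. Of 11 cardiac markers 3 are in the table, and they summed to 1427 to 8198 in Mfn1-/- and 2973 to 5019 in Mfn2-/- libraries over all days, against 110 to 247 in WT A to C and 117 to 142 in WT D to F libraries. Tnnt2 and Gata4 carried these sums, and Tnni3 was at 15.1 in Mfn1-/- MEFs against 23.0 in WT at day -2. The part of these other markers in the results was not tested.

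The stretches of DNA just before the start of 4 of these genes are printed first. Foxo1, Irs2 and Pik3r1 are the genes of the 10 that were called higher in both knockout lines at day -2, and Irs1 is the paralogue of Irs2 and was called in the Mfn2-/- line at that day. Sequences are RefSeq's for GRCm38.p6, 250 bases each, read 5′ to 3′ on the gene's own strand up to the base before the RefSeq start, and capitals mark matches to the motifs named below.
Foxo1: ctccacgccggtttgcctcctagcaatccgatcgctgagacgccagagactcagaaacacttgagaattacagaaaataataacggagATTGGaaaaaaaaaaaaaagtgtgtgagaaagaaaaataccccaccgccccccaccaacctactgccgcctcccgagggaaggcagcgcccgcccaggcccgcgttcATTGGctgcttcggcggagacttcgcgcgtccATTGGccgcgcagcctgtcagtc
Irs2: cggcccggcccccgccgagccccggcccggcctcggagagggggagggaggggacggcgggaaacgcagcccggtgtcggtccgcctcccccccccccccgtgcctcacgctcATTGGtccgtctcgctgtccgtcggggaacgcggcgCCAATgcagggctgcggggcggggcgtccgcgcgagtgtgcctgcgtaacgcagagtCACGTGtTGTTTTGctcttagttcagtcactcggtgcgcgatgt
Irs1: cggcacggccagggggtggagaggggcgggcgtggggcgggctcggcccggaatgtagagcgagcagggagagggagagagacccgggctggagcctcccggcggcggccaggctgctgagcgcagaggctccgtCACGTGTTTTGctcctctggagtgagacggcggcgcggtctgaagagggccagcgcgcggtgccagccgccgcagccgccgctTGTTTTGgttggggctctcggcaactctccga
Pik3r1: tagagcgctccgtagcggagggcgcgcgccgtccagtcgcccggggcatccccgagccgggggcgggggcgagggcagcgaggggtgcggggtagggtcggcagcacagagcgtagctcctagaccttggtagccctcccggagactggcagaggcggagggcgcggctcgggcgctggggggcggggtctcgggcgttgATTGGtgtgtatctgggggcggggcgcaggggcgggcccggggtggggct
The windows lie at chr3:52268087-52268336 on the plus strand (Foxo1), and at chr8:11008930-11009179 (Irs2), chr1:82291440-82291689 (Irs1) and chr13:101768218-101768467 (Pik3r1) on the minus strand. Their GC content was 56.0% for Foxo1, 72.8% for Irs2, 72.4% for Irs1 and 76.4% for Pik3r1.

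Both strands were searched for CACGTG (the E-box), TGTTTTG (an insulin response motif), TGTTTAC (a FoxO binding motif) and CCAAT. Where a motif matched on the opposite strand, the capitals show its reverse complement. Irs1 and Irs2 were the genes of the 8 with a window that had both an E-box and TGTTTTG. In Irs2 the E-box began 44 bases before the start and TGTTTTG 37 bases before it. In Irs1 the E-box began 115 bases before the start and overlapped the first TGTTTTG, which began 111 bases before it, and a second TGTTTTG began 32 bases before the start. Of 32851 mouse windows of this length, 6.02% held CACGTG, 5.56% held TGTTTTG and 0.30% held both. CCAAT was found at 3 places in Foxo1, 2 in Irs2 and 1 in Pik3r1, and 33.85% of all windows held it. TGTTTAC (3.17% of all windows) was found only at Akt1 among these genes. A match is a string of letters and not a binding site shown to be used. Slc2a4 and Insr had no window in the reference used, so they were not searched. The windows of Slc2a1, Akt1, Akt2 and Pik3ca were searched but are not printed.

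Across the 6 comparisons of a knockout with its WT, the 10 genes did not move together. In Mfn1-/- MEFs at day -2, 3 of the 10 were called (adjusted p under 0.01), all higher, against 22.4% of all genes tested (12.5% higher and 9.98% lower). At day 0, 2 of 10 were called, both higher, against 21.5% of all genes (10.7% higher and 10.8% lower), and at day +3, 2 of 10 were called, both lower, against 21.5% (10.6% higher and 10.8% lower). In the libraries labelled Mfn1-/- at day +8, 5 of 10 rose and 2 fell, against 50.2% of all genes called (23.5% higher and 26.7% lower). In Mfn2-/- MEFs at day -2, 5 rose and 1 fell, against 35.5% of all genes (16.4% higher and 19.1% lower), and at day +8, 4 were called, all lower, against 38.1% (17.1% higher and 21.0% lower). Groups that do not overlap were common with 3 libraries each. In the Mfn1-/- line this held for 8, 7, 3 and 8 of the 10 genes at day -2, 0, +3 and +8, against 50.9%, 52.3%, 30.7% and 58.2% of all genes, and in the Mfn2-/- line for 10 at day -2 and 6 at day +8, against 68.8% and 69.7%. The median log2 fold change of the 10 genes was 0.64 in the libraries labelled Mfn1-/- at day +8 (all genes -0.07) and -0.10 in Mfn2-/- MEFs at day +8 (all genes -0.03).

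**Figure D1:**
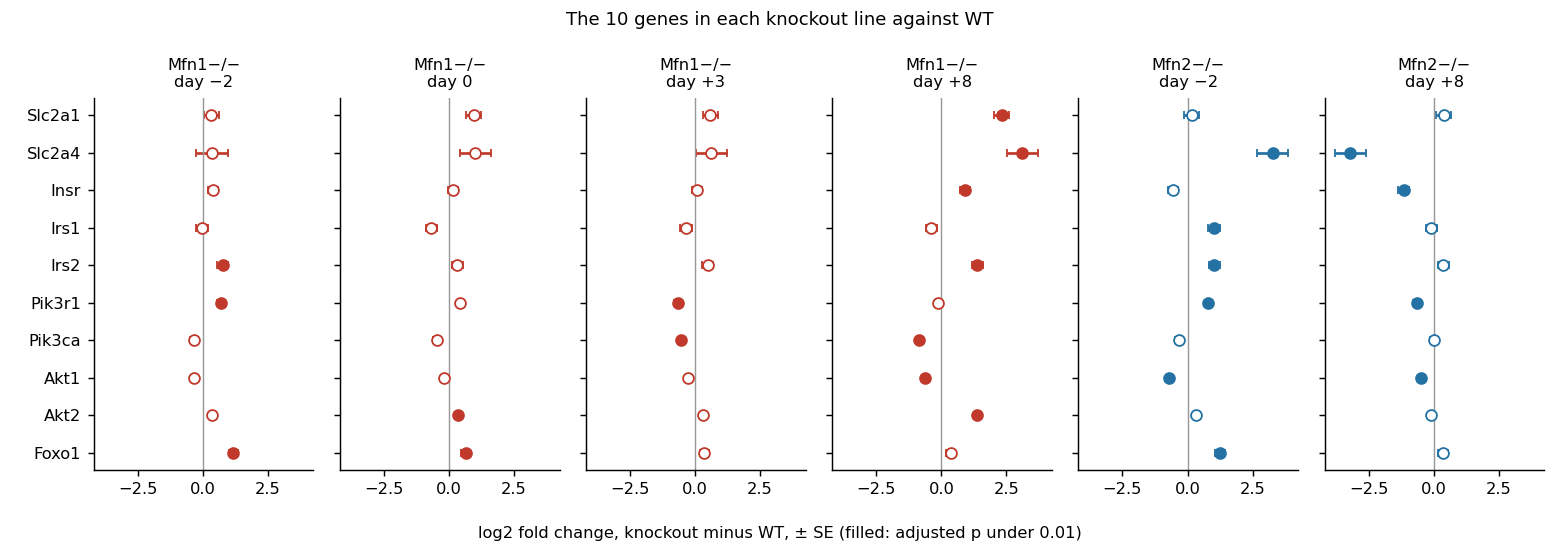
Log2 fold change (x axis, with its limma standard error as a bar) of the 10 genes in each of the 6 comparisons of a knockout line with the WT libraries of its block, with filled points for adjusted p under 0.01. Slc2a4 stands at 3.11 in the libraries labelled Mfn1-/- at day +8 and at -3.21 in Mfn2-/- MEFs at day +8, while Akt1 is left of 0 in all 6 panels.

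Slc2a4 on chromosome 11 (ENSMUSG00000018566, 69942539 to 69948188 of GRCm38, minus strand) encodes GLUT4, the transporter that insulin brings to the surface of fat and muscle cells. Its RNA was scarce before differentiation, and at day +8 the knockout lines stood on opposite sides of WT. In the libraries labelled Mfn1-/- at day +8 it was at 3045, 1671 and 797 normalized counts, against 288, 165 and 131 in WT. Every library labelled Mfn1-/- was above every WT library, and the means differed 9.44-fold (log2 fold change 3.11, SE 0.60, limma adjusted p = 5.67e-05). The 5 adipocyte markers in the table (Fabp4, Lpl, Pparg, Cebpa and Plin4, of 12 listed) summed to 170667 to 192854 in the same libraries, against 11573 to 15233 in WT, none of them was at 0, and their part in the Slc2a4 difference was not tested. In bulk RNA, more cells of a type and more RNA per cell cannot be told apart.

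In Mfn2-/- MEFs at day +8 Slc2a4 was at 34.9, 29.05 and 57.7 normalized counts, against 315, 282 and 558 in WT. It fell to 10.5% of the WT mean, and the groups did not overlap (log2 fold change -3.21, SE 0.60, limma adjusted p = 5.27e-05). The adipocyte markers summed to 1577 to 1742 in Mfn2-/- MEFs at this day, against 21563 to 43196 in WT. Both WT sets had gained Slc2a4 RNA by day +8. Between day +8 and day -2, on reads rescaled across all libraries by the trimmed mean of M values (TMM), WT libraries D to F held 530.2 against 6.83 reads and WT libraries A to C held 215 against 13.7 reads. The matching values in Mfn2-/- MEFs were 57.3 against 53.5 TMM reads, a log2 change of 0.07 with a 95% interval (1.96 SE to each side, as elsewhere) of -1.13 to 1.28 (limma adjusted p = 0.957).

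Before differentiation the order was another one. At day -2 Slc2a4 was at 41.5, 40.8 and 25.5 normalized counts in Mfn2-/- MEFs, against 0.973, 1.07 and 11.8 in WT (log2 fold change 3.27, SE 0.60, limma adjusted p = 4.2e-05). These are few reads: 108 in all in the Mfn2-/- libraries and 15 in the WT libraries, 13 of which came from 1 library. The adipocyte markers summed to 1348 to 1549 in Mfn2-/- MEFs at day -2, against 187 to 196 in WT, but this sum was mostly Lpl, which encodes lipoprotein lipase (1378 in Mfn2-/- MEFs, 79.3 in WT). Of the 5 markers 2 rose and 3 fell: Fabp4 and Pparg had 0 reads in all Mfn2-/- libraries and Plin4 was at 3.33 against 20.9 in WT. In Mfn1-/- MEFs at day -2 Slc2a4 was at 18.0, 18.4 and 20.6 normalized counts, against 13.8, 13.4 and 16.9 in WT, which was not called (log2 fold change 0.36, limma adjusted p = 0.69). At day 0 its mean was 79.9 ± 16.8 in Mfn1-/- MEFs and 39.1 ± 10.7 in WT, and at day +3 it was 101 ± 85.7 in Mfn1-/- MEFs and 52.9 ± 27.9 in WT (SD, n = 3 each), neither of which was called. At day +3 the libraries of both groups spread widely, at 193, 86.8 and 23.9 in Mfn1-/- MEFs against 82.1, 50.2 and 26.5 in WT.

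**Figure D2:**
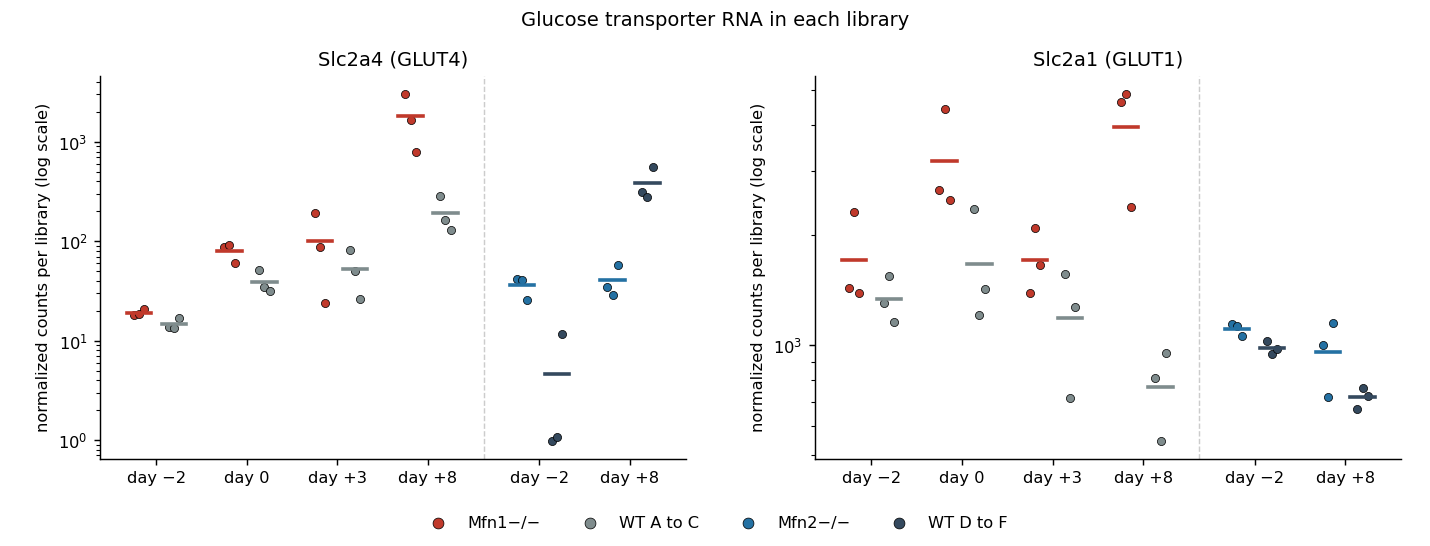
Normalized counts (log scale) of Slc2a4 and Slc2a1 in every library, by comparison, with the knockout group left of its WT group, 1 point per library and a bar at each mean. For Slc2a4 the libraries labelled Mfn1-/- at day +8 sit at 797 to 3045, above their WT at 131 to 288, and the Mfn2-/- libraries at day +8 sit at 29.05 to 57.7, below their WT at 282 to 558.

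Slc2a1 on chromosome 4 (ENSMUSG00000028645, 119108711 to 119137983, plus strand) encodes GLUT1, which works at the cell surface without insulin. It rose in the libraries labelled Mfn1-/- at day +8, at 4625, 4870 and 2392 normalized counts, against 810.1, 545 and 952 in WT. The groups were apart, with a 5.15-fold difference in the means (log2 fold change 2.33, SE 0.29, limma adjusted p = 6.72e-08). At the earlier days the same line stood above WT in the mean without a call. The means were 1711 ± 517 in Mfn1-/- MEFs and 1334 ± 194 in WT at day -2, 3195 ± 1072 in Mfn1-/- MEFs and 1661 ± 610 in WT at day 0 (limma adjusted p = 0.0116), and 1710 ± 358 in Mfn1-/- MEFs and 1184 ± 431 in WT at day +3 (SD, n = 3 each). The Mfn2-/- line had 1140, 1130 and 1055 normalized counts of Slc2a1 at day -2, against 1023, 947 and 976 in WT. Its day +8 values were 998, 721 and 1148 in Mfn2-/- MEFs, against 668, 763 and 725 in WT, and these groups overlapped (log2 fold change 0.39, interval -0.18 to 0.95, limma adjusted p = 0.278).

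Per kilobase of exon, Slc2a4 RNA remained below Slc2a1 RNA in every group mean. The ratio of Slc2a4 to Slc2a1 per kilobase was 0.448 ± 0.186 in the libraries labelled Mfn1-/- at day +8 and 0.267 ± 0.114 in their WT, and it was 0.0422 ± 0.00785 in Mfn2-/- MEFs at day +8 and 0.541 ± 0.210 in their WT (SD, n = 3 each). At day -2 it lay between 0.000959 and 0.0367 in all 12 libraries. The first pair of ratios overlapped between groups and the second pair did not.

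Insr on chromosome 8 (ENSMUSG00000005534, 3122061 to 3279617, minus strand) encodes the insulin receptor, and it too ended on opposite sides of WT. In the libraries labelled Mfn1-/- at day +8 it was at 1553, 2044 and 1831 normalized counts, against 767, 824 and 1376 in WT. It rose 1.83-fold (log2 fold change 0.91, SE 0.20, limma adjusted p = 0.000178), and the call was missed when only the 6 libraries of this comparison were fitted (limma adjusted p = 0.0105). In Mfn2-/- MEFs at day +8 Insr was at 312, 361 and 354 normalized counts, against 762, 765 and 772 in WT. It fell to 44.7% of WT (log2 fold change -1.16, SE 0.20, limma adjusted p = 9.87e-06), and no Mfn2-/- library reached the lowest WT library.

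At day -2 Insr was at 289, 291 and 298 normalized counts in Mfn2-/- MEFs, against 418, 424 and 447 in WT (log2 fold change -0.55, limma adjusted p = 0.0207). In Mfn1-/- MEFs at day -2 it was at 946, 930 and 1107, against 669, 691 and 915 in WT (log2 fold change 0.40, limma adjusted p = 0.112). Neither was called, although the groups did not overlap in either line. When only the libraries of the comparison were fitted by limma, Insr was called in Mfn2-/- MEFs at day -2, as were Slc2a1 and Akt2. At day 0 and day +3 the Mfn1-/- and WT libraries overlapped, with means of 1287 and 1125 at day 0 and of 876 and 839 at day +3 in Mfn1-/- MEFs and WT.

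**Figure D3:**
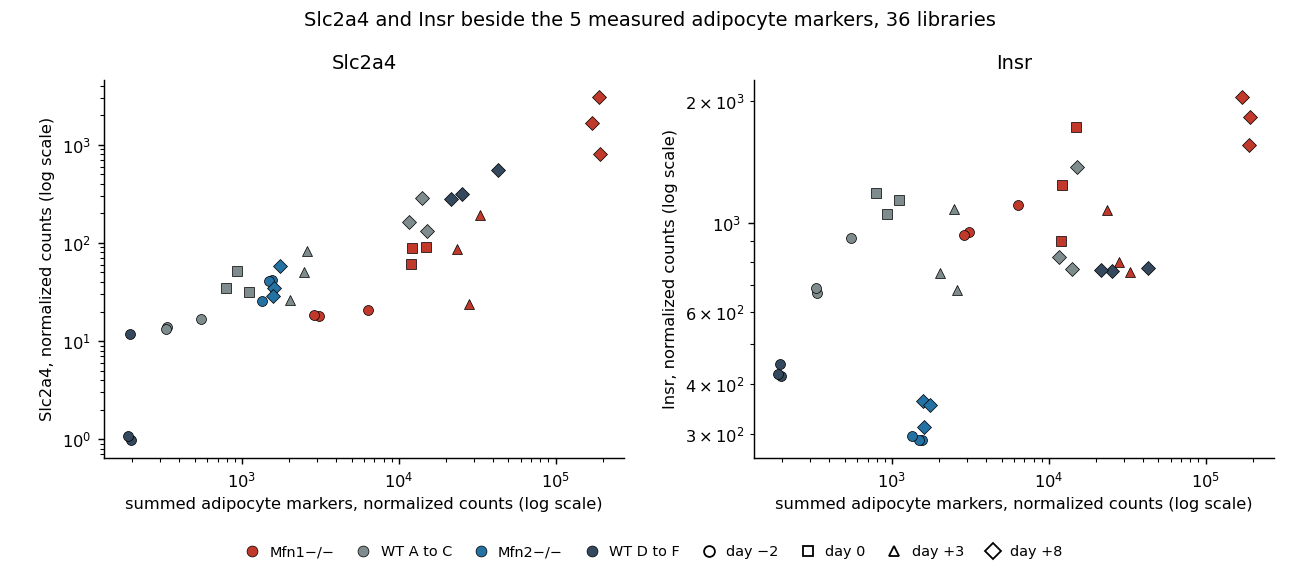
Slc2a4 and Insr (y axes) against the sum of 5 adipocyte markers (x axis), all in normalized counts on log axes, 1 point for each of the 36 libraries. Values of the 6 blocks were normalized separately, so the plot shows the order of libraries within a block. The libraries labelled Mfn1-/- at day +8 lie at the upper right at marker sums of 170667 to 192854, and the Mfn2-/- libraries of both days stay at marker sums of 1348 to 1742.

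Irs1 and Irs2 encode the main adaptors that the receptor phosphorylates. Irs2 on chromosome 8 (ENSMUSG00000038894, 10984681 to 11008458, minus strand) was the adaptor that stood higher in both lines at day -2. It was at 1788, 1852 and 2024 normalized counts in Mfn1-/- MEFs, against 941, 1131 and 1257 in WT (log2 fold change 0.77, SE 0.21, limma adjusted p = 0.00505). This call was lost when any of 5 of the 6 libraries was left out (limma adjusted p from 0.0110 to 0.0360). It was at 1227, 1091 and 1246 in Mfn2-/- MEFs, against 637, 518 and 588 in WT (log2 fold change 1.03, SE 0.21, limma adjusted p = 0.000157).

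At day +8 Irs2 rose in the libraries labelled Mfn1-/-, at 3014, 4363 and 3854 normalized counts, against 1178, 1187 and 1993 in WT. The means differed 2.58-fold with no overlap (log2 fold change 1.39, SE 0.21, limma adjusted p = 1.57e-06). The Mfn2-/- libraries of that day were at 1032, 1398 and 1355, against 960, 986 and 982 in WT, without a call (log2 fold change 0.36, interval -0.06 to 0.77, limma adjusted p = 0.166). At day 0 and day +3 the Mfn1-/- and WT libraries overlapped, with log2 fold changes of 0.32 and 0.48.

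Irs1 on chromosome 1 (ENSMUSG00000055980, 82233101 to 82291416, minus strand) took another course. It rose in Mfn2-/- MEFs at day -2, to 882, 821 and 1038 normalized counts, against 452, 413 and 478 in WT (log2 fold change 1.02, SE 0.22, limma adjusted p = 0.000255). With all 6 WT libraries of that day as the reference the log2 fold change was 0.62 and the call was lost (limma adjusted p = 0.0267). At day +8 Irs1 was at 813, 1020 and 975 in Mfn2-/- MEFs, against 973, 983 and 1030 in WT, and the groups overlapped.

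In Mfn1-/- MEFs Irs1 was not called at any day. It was at 1201, 1084 and 1437 normalized counts at day -2, against 1187, 1180 and 1398 in WT (log2 fold change -0.02, interval -0.45 to 0.41). At day 0 it was at 1474, 2257 and 1482 in Mfn1-/- MEFs, against 3038, 2733 and 2467 in WT (log2 fold change -0.68, limma adjusted p = 0.0159), where the groups did not overlap. Its values at day +8 were 768, 1254 and 1710 in the libraries labelled Mfn1-/-, against 1307, 1464 and 1915 in WT (log2 fold change -0.38, limma adjusted p = 0.127). The antisense gene Gm9747 covers 30.86% of the Irs1 exons, and whether reads were counted by strand is not stated, so its reads cannot be separated from those of Irs1.

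The balance of the adaptors leaned to Irs2 in Mfn1-/- MEFs. The ratio of Irs2 to Irs1 per kilobase of exon was 2.22 ± 0.224 in Mfn1-/- MEFs and 1.28 ± 0.121 in WT at day -2, and 2.24 ± 0.299 in Mfn1-/- MEFs and 1.11 ± 0.0204 in WT at day 0. By day +8 the ratio was 4.66 ± 1.25 in the libraries labelled Mfn1-/-, against 1.33 ± 0.167 in WT (SD, n = 3 each). At these days the lowest Mfn1-/- library was above the highest WT library, and at day +3 the ranges of 2.48 to 4.66 in Mfn1-/- MEFs and 1.62 to 2.81 in WT overlapped. For the Mfn2-/- line it was 1.89 ± 0.141 at day -2, against 1.88 ± 0.143 in WT, where both adaptors rose, and 1.94 ± 0.0933 at day +8, against 1.42 ± 0.0365 in WT.

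**Figure D4:**
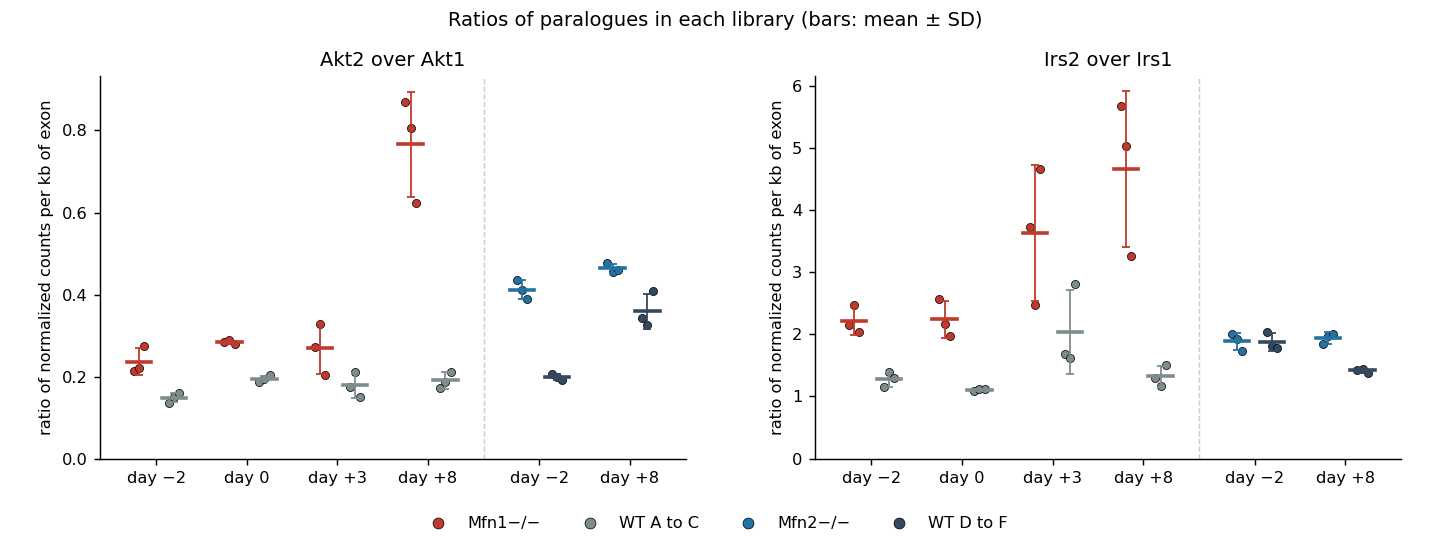
Ratios of Akt2 to Akt1 and of Irs2 to Irs1, each per kilobase of exon within a library, with the knockout group left of its WT, 1 point per library and the mean ± SD (n = 3). The libraries labelled Mfn1-/- at day +8 stand above their WT in both panels, at 0.766 against 0.191 for Akt2 to Akt1 and at 4.66 against 1.33 for Irs2 to Irs1.

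Pik3r1 and Pik3ca encode the regulatory and the catalytic subunit of the kinase that the adaptors bind. Pik3r1 on chromosome 13 (ENSMUSG00000041417, 101680563 to 101768217, minus strand) was higher in both knockout lines before differentiation. At day -2 it was at 1506, 1582 and 1779 normalized counts in Mfn1-/- MEFs, against 916, 1023 and 1062 in WT (log2 fold change 0.70, SE 0.14, limma adjusted p = 0.000213). It was at 1223, 1180 and 1172 in Mfn2-/- MEFs, against 716, 639.5 and 697 in WT (log2 fold change 0.80, SE 0.14, limma adjusted p = 1.67e-05). The lowest knockout library was above the highest WT library in both lines. At day 0 Pik3r1 was at 1954 ± 171 in Mfn1-/- MEFs and 1441 ± 188 in WT (SD, n = 3 each). This was not called (log2 fold change 0.44, limma adjusted p = 0.0142), although the groups did not overlap.

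After differentiation had begun Pik3r1 was lower in the knockout lines or level with WT. At day +3 it was at 1955, 2091 and 1995 normalized counts in Mfn1-/- MEFs, against 2969, 4211 and 2624 in WT (log2 fold change -0.67, SE 0.14, limma adjusted p = 0.000338), a call that was lost when only these 6 libraries were fitted (limma adjusted p = 0.0776). The day +8 values were 1238, 1646 and 1594 in the libraries labelled Mfn1-/-, against 1779, 1810 and 1276 in WT, and the groups overlapped (log2 fold change -0.11, interval -0.39 to 0.16). It fell in Mfn2-/- MEFs at day +8, to 835, 848 and 851, against 1304, 1312 and 1381 in WT (log2 fold change -0.66, SE 0.14, limma adjusted p = 0.000224).

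Pik3ca on chromosome 3 (ENSMUSG00000027665, 32397671 to 32468486, plus strand) was lower than WT in the mean of the Mfn1-/- line at all 4 days, with calls at day +3 and day +8. At day -2 it was at 1526, 1377 and 1713 normalized counts in Mfn1-/- MEFs, against 1875, 1799 and 2166 in WT (log2 fold change -0.34, limma adjusted p = 0.0669), and at day 0 at 1951, 2152 and 1577 in Mfn1-/- MEFs, against 2512, 2634 and 2650 in WT (log2 fold change -0.47, limma adjusted p = 0.0125). These groups did not overlap. It was at 875, 1211 and 1233 normalized counts at day +3, against 1276, 1795 and 1728 in WT (log2 fold change -0.53, SE 0.14, limma adjusted p = 0.0047). This call did not hold with the replicate letter as a block (limma adjusted p = 0.0112), with these 6 libraries alone (0.161), or without Mfn1-/- library A (0.0623), WT library B (0.0370) or WT library C (0.0253). Its day +8 counts were 839, 1027 and 977 in the libraries labelled Mfn1-/-, against 1536, 1557 and 2027 in WT (log2 fold change -0.84, SE 0.14, limma adjusted p = 9.64e-06). Pik3ca was not called in Mfn2-/- MEFs, with log2 fold changes of -0.34 at day -2 (limma adjusted p = 0.0506) and 0.01 at day +8 (interval -0.27 to 0.29). When only the 6 libraries of the comparison were fitted, Pik3ca was called in Mfn2-/- MEFs at day -2. The Mfn1-/- effect minus the Mfn2-/- effect was 0.00 at day -2 (interval -0.40 to 0.40) and -0.85 at day +8. Pik3ca lies 61.0 kb from Mfn1 on the same chromosome, and the part of this place in its level was not tested.

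Per kilobase of exon, the ratio of Pik3r1 to Pik3ca was 0.954 ± 0.0743 in Mfn1-/- MEFs and 0.465 ± 0.0413 in WT at day -2, and 1.20 ± 0.0740 in Mfn2-/- MEFs and 0.544 ± 0.0449 in WT (SD, n = 3 each). The day +8 ratio was 1.42 ± 0.0744 in the libraries labelled Mfn1-/-, against 0.887 ± 0.276 in WT, and 0.655 ± 0.0775 in Mfn2-/- MEFs and 1.03 ± 0.0534 in WT. At day 0 it was 0.941 ± 0.118 in Mfn1-/- MEFs and 0.501 ± 0.0761 in WT, and at day +3 the ranges of 1.46 to 2.02 in Mfn1-/- MEFs and 1.37 to 2.12 in WT overlapped. At the other days the knockout groups did not overlap with their WT groups, and the direction in Mfn2-/- MEFs was upward at day -2 and downward at day +8.

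Akt1 and Akt2 encode kinases that carry the signal from the lipid product to its targets, and in mice Akt2 is the one tied most closely to glucose uptake. Akt1 on chromosome 12 (ENSMUSG00000001729, 112653821 to 112674884, minus strand) was lower than WT in the mean of every comparison. It fell in Mfn2-/- MEFs, to 1992, 2032 and 2071 normalized counts at day -2, against 3281, 3403 and 3395 in WT (log2 fold change -0.73, SE 0.11, limma adjusted p = 9.71e-07). It fell there at day +8 too, to 2153, 2086 and 2064 in Mfn2-/- MEFs, against 2997, 2998 and 2803 in WT (log2 fold change -0.48, SE 0.11, limma adjusted p = 0.000326). In the libraries labelled Mfn1-/- at day +8 it fell to 2962, 2670 and 2725, against 4652, 4538 and 3706 in WT (log2 fold change -0.62, SE 0.11, limma adjusted p = 8.53e-06). This call was lost with these 6 libraries alone (limma adjusted p = 0.0137). At day -2, 0 and +3 the log2 fold changes in Mfn1-/- MEFs were -0.32, -0.19 and -0.29, with limma adjusted p values of 0.0187, 0.183 and 0.0352.

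Akt2 on chromosome 7 (ENSMUSG00000004056, 27591552 to 27640826, plus strand) moved the other way in the Mfn1-/- line. In the libraries labelled Mfn1-/- at day +8 it rose to 4482, 3743 and 2954 normalized counts, against 1399, 1474 and 1368 in WT. The means differed 2.64-fold (log2 fold change 1.38, SE 0.11, limma adjusted p = 4.17e-12), the smallest p of the 10 genes in that comparison. At day 0 it was at 2496, 2388 and 2372 in Mfn1-/- MEFs, against 1830, 1883 and 1944 in WT (log2 fold change 0.36, SE 0.11, limma adjusted p = 0.00955). That call was lost without any 1 of the 6 libraries (limma adjusted p from 0.0192 to 0.0369). At day -2 and +3 the log2 fold changes were 0.35 and 0.29 and were not called (limma adjusted p = 0.0121 and 0.0365), although the groups did not overlap at either day. The Mfn2-/- line had 1508, 1458 and 1403 normalized counts of Akt2 at day -2, against 1182, 1170 and 1132 in WT (log2 fold change 0.33, limma adjusted p = 0.0126), and its groups overlapped at day +8 (log2 fold change -0.10).

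The ratio of Akt2 to Akt1 per kilobase of exon was above WT in both lines. It was 0.236 ± 0.0327 in Mfn1-/- MEFs and 0.149 ± 0.0119 in WT at day -2, and 0.766 ± 0.128 in the libraries labelled Mfn1-/-, against 0.191 ± 0.0199 in WT at day +8. For the Mfn2-/- line it was 0.412 ± 0.0229 against 0.199 ± 0.00777 in WT at day -2, and 0.464 ± 0.0108 against 0.359 ± 0.0432 in WT at day +8 (SD, n = 3 each). No group overlapped with its WT at these days, and at day +3 the ranges were 0.204 to 0.329 in Mfn1-/- MEFs and 0.151 to 0.211 in WT. Akt1 remained the more abundant of the kinases per kilobase in every library.

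Foxo1 on chromosome 3 (ENSMUSG00000044167, 52268336 to 52353221, plus strand) encodes a transcription factor that Akt phosphorylation sends out of the nucleus. Its RNA was higher in both lines before differentiation. At day -2 it was at 505, 399.5 and 463 normalized counts in Mfn1-/- MEFs, against 194, 177 and 233 in WT, a 2.26-fold difference (log2 fold change 1.18, SE 0.18, limma adjusted p = 7.03e-06). It was at 352, 321 and 333 in Mfn2-/- MEFs, against 126, 152 and 144 in WT, a 2.39-fold difference (log2 fold change 1.25, SE 0.18, limma adjusted p = 1.16e-06). The groups were well apart in both lines. The WT libraries were separate but of the same WT line, so both comparisons share a reference line.

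At day 0 Foxo1 was at 633, 751 and 395 normalized counts in Mfn1-/- MEFs, against 419.8, 366 and 321 in WT, where the groups overlapped (log2 fold change 0.64, SE 0.18, limma adjusted p = 0.00734). This call was lost without Mfn1-/- library A (limma adjusted p = 0.0382), Mfn1-/- library B (0.0915), WT library B (0.0233) or WT library C (0.0490). At day +3 it was at 328, 465 and 325 in Mfn1-/- MEFs, against 229.5, 380.1 and 270.3 in WT, without a call. At day +8 the log2 fold change was 0.36 in the libraries labelled Mfn1-/- (613, 628 and 597, against 476, 439.8 and 516 in WT) and 0.36 in Mfn2-/- MEFs (389, 460 and 481, against 335, 322 and 379 in WT). Neither was called (limma adjusted p = 0.0882 and 0.107), although the groups did not overlap in either line.

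Whether the knockout effects differed between days and between the lines was tested directly. The day +8 libraries of the Mfn1-/- line were taken by their label. For Mfn1 RNA itself, which was near WT in them, the effect at day +8 minus that at day -2 was 2.90 (SE 0.20, limma adjusted p = 3.16e-11). The effect in the Mfn1-/- line at day +8 minus that at day -2 was called for 3 of the 10 genes (26.7% of all genes). It was 2.00 on the log2 scale for Slc2a1 (SE 0.41, limma adjusted p = 0.000313), 1.03 for Akt2 (SE 0.15, limma adjusted p = 3.62e-06) and -0.81 for Pik3r1 (SE 0.20, limma adjusted p = 0.00163). The Pik3r1 value was not called with the replicate letter as a block (limma adjusted p = 0.0109), while the Slc2a4 value of 2.75, just outside the threshold without it (limma adjusted p = 0.0108), was called with it (0.00154). The effect in the Mfn2-/- line at day +8 minus that at day -2 was called for 3 of the 10 (15.5% of all genes), at -6.48 for Slc2a4 (SE 0.85, limma adjusted p = 1.66e-06), -1.46 for Pik3r1 (SE 0.20, limma adjusted p = 2.07e-06) and -1.12 for Irs1 (SE 0.31, limma adjusted p = 0.00743). The Irs1 call was lost without any of 11 of the 12 libraries (limma adjusted p from 0.0102 to 0.0249). The Slc2a4 value takes in its day -2 effect of 3.27, where WT libraries D to F held 15 reads in all, 13 of them in 1 library. With each library left out in turn it ran from -7.36 to -6.02.

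The lines differed from each other most in the transporters and the receptor at day +8. The Mfn1-/- effect minus the Mfn2-/- effect at day +8 was called for 6 of the 10 (37.0% of all genes). It was 6.32 for Slc2a4 (SE 0.85, limma adjusted p = 4.43e-07), 2.08 for Insr (SE 0.28, limma adjusted p = 2.75e-07) and 1.95 for Slc2a1 (SE 0.41, limma adjusted p = 0.000248). It was 1.48 for Akt2 (SE 0.15, limma adjusted p = 1.81e-09), 1.04 for Irs2 (SE 0.30, limma adjusted p = 0.00491) and -0.85 for Pik3ca (SE 0.20, limma adjusted p = 0.000931). The difference for Foxo1 was 0.00 with an interval of -0.50 to 0.51, and that for Akt1 was -0.14 with an interval of -0.43 to 0.15. At day -2, 3 of the 10 were called (20.9% of all genes): Slc2a4 at -2.91 (limma adjusted p = 0.00881), Insr at 0.95 (0.00819) and Irs1 at -1.05 (0.00957). None of these 3 was called by edgeR on the recovered reads (edgeR adjusted p = 0.0987, 0.0115 and 0.0109), and each was lost without any of 10 or 11 of the 12 libraries. The Irs2 call at day +8 was lost without any of 7 of the 12 libraries (limma adjusted p from 0.0101 to 0.0199).

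The course of the 10 genes over differentiation was followed on TMM-rescaled reads, which compare across blocks. Between day +8 and day -2, Slc2a4, Foxo1 and Pik3r1 rose in both WT sets. In WT libraries A to C, where 3 of 10 genes were called, all higher (15.3% of all genes called, 8.01% higher and 7.28% lower), the log2 changes were 3.79 for Slc2a4, 1.48 for Foxo1 and 0.92 for Pik3r1. In WT libraries D to F, where 6 of 10 were called, all higher (25.3% of all genes, 12.8% higher and 12.5% lower), they were 6.69, 1.18 and 0.85, with Irs1 at 1.04, Insr at 0.72 and Akt2 at 0.54. The Insr call was lost without any of 5 of the 6 libraries (limma adjusted p from 0.0108 to 0.0133). The Slc2a4 value in WT libraries D to F rests on a day -2 level of 6.83 reads.

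In the Mfn1-/- line 6 of 10 genes rose and 1 fell between day +8 and day -2 (43.2% of all genes, 20.8% higher and 22.4% lower). The log2 changes were 6.62 for Slc2a4, 1.49 for Slc2a1, 1.28 for Irs2, 1.22 for Akt2, 1.16 for Insr and 0.74 for Foxo1, and Akt1 fell by 0.47 on the log2 scale. In the Mfn2-/- line 1 of 10 was called (17.6% of all genes, 9.53% higher and 8.09% lower): Pik3r1 fell by 0.57 on the log2 scale (limma adjusted p = 0.0025), while it rose in both WT sets. This call was lost without Mfn2-/- library A of day -2 (limma adjusted p = 0.0125) or of day +8 (0.0104). The other 9 genes had log2 changes of -0.31 to 0.33 in the Mfn2-/- line.

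Day by day, none of the 10 genes was called between day 0 and day -2 by limma in Mfn1-/- MEFs (0.112% of all genes) or in WT libraries A to C (2.81%). At an unadjusted p under 0.05 there were 2 genes in Mfn1-/- MEFs and 4 in WT libraries. For this step edgeR called 0 of the 10 in both, and DESeq2 called 0 in Mfn1-/- MEFs and 2 in WT libraries, Irs1 (DESeq2 adjusted p = 0.00334) and Akt1 (0.00728). Between day +3 and day 0, after the hormone mix, Pik3r1 rose in WT libraries A to C to 3220 ± 815 TMM reads, against 1095 ± 146 at day 0 (log2 change 1.53, SE 0.14, limma adjusted p = 5.36e-09). In the same step Irs1 fell by 1.11 on the log2 scale in WT (11.3% of all genes called) and by 0.74 in Mfn1-/- MEFs (17.7% of all genes called). The matching Pik3r1 change in Mfn1-/- MEFs was 0.46 (limma adjusted p = 0.0127), at 1974 ± 54.4 TMM reads at day +3 against 1436 ± 108 at day 0.

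Between day +8 and day +3 the WT libraries A to C had 3 calls (6.17% of all genes): Foxo1 at a log2 change of 0.89, Irs1 at 0.82 and Pik3r1 at -0.84. In the Mfn1-/- line 7 of 10 genes rose in this step (34.0% of all genes, 17.4% higher and 16.6% lower), which took in Slc2a4 at 4.60, Slc2a1 at 1.35, Insr at 1.24, Akt2 at 1.20, Irs2 at 1.19, Foxo1 at 0.93 and Irs1 at 0.82. For Slc2a1, Slc2a4, Insr, Irs2 and Akt2 no change was called in this line in either earlier step. Between day 0 and day -2, however, where 0.112% of all genes were called, Slc2a4 stood at 58.6 against 17.2 TMM reads without overlap. Its log2 change was 1.69 (interval 0.49 to 2.90, limma adjusted p = 0.246), and that of Slc2a1 was 0.59 (interval 0.02 to 1.16, limma adjusted p = 0.433). The Irs1 calls of the later steps were the least steady. Without a single library, the one in WT reached limma adjusted p values of up to 0.0798, and those in the Mfn1-/- line up to 0.0903 between day +3 and day 0 and up to 0.0347 between day +8 and day +3. Foxo1 in WT lost its call without WT library A of day +3 (limma adjusted p = 0.0198).

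**Figure D5:**
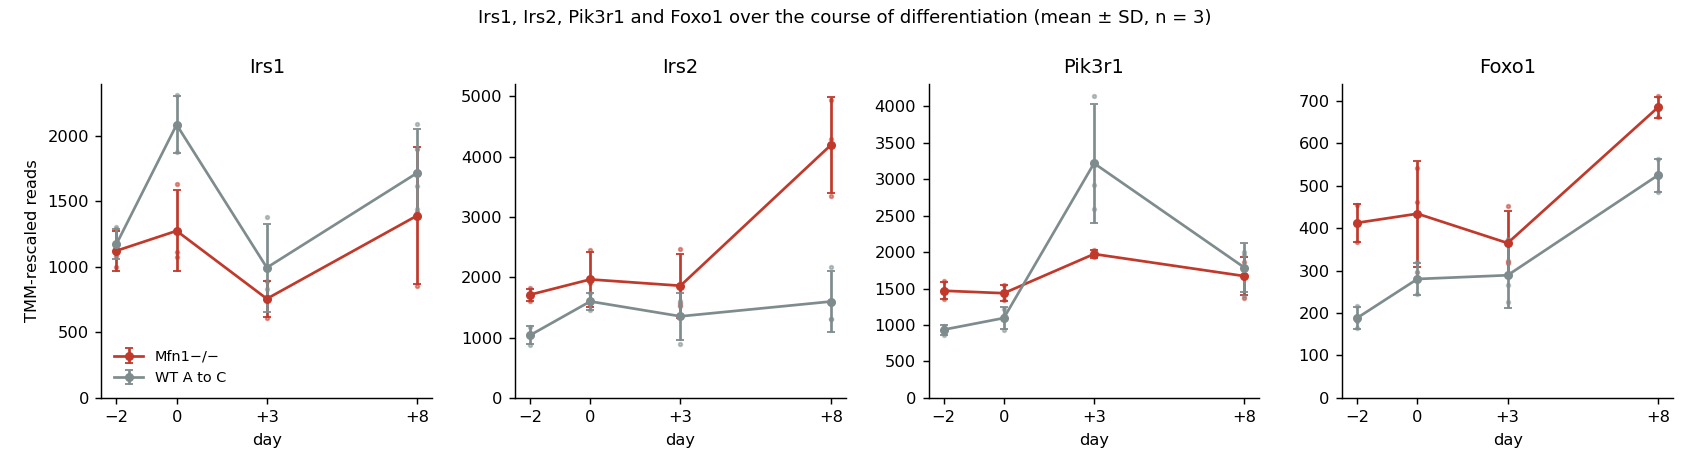
TMM-rescaled reads (y axis) of Irs1, Irs2, Pik3r1 and Foxo1 at day -2, 0, +3 and +8 (x axis) in the Mfn1-/- line and in WT libraries A to C, mean ± SD (n = 3). Pik3r1 in WT peaks at day +3 at 3220 reads, and Irs2 in the line labelled Mfn1-/- stands at 4193 reads at day +8, against 1597 in WT.

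The order of the 10 genes by level per kilobase of exon shows the same shift. Akt1 was highest in the mean of 11 of the 12 groups. The exception was the libraries labelled Mfn1-/- at day +8, where Slc2a1 stood at 1130 ± 389 normalized counts per kilobase and Akt1 at 680 ± 37.9 (SD, n = 3 each), with overlapping ranges of 682 to 1389 and 652 to 723. In that group Irs2 (592), Slc2a4 (528) and Akt2 (523) followed, each overlapping the gene ranked next to it, and the next gene, Pik3r1, lay wholly below Akt2, at 123 to 163 against 414 to 628.5 per kilobase. Slc2a4 had the lowest level in 9 of the 12 groups, Mfn2-/- MEFs at day +8 among them (11.7 ± 4.36 per kilobase). In the other 3, all at day +8, Foxo1 was lowest, and in WT libraries A to C it overlapped with Slc2a4.

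The genes whose group means ran most like those of these genes were found by Pearson's r over the 12 groups among 11811 genes, as a description of groups that share lines and days. For Slc2a4 they were Aldh6a1 (r = 0.962), Lipe, which encodes hormone-sensitive lipase (0.949), and Chchd10 (0.945). For Insr they were Shpk (0.987), the lipid droplet gene Plin4 (0.964) and Abcb9 (0.962), and for Irs2 Sema4g (0.970), the pyruvate dehydrogenase kinase gene Pdk2 (0.964) and the glucose transporter gene Slc2a8 (0.949). For Slc2a1 they were Zfp574 (0.963), Ppp1r13l (0.921) and Ppme1 (0.917), and for Irs1 Crebrf (0.896), Wdsub1 (0.892) and Gtdc1 (0.879).

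The wider pathway was read from 7 lists with 115 genes, 104 of which were tested. In Mfn1-/- MEFs at day -2, 21 of the 104 rose and 13 fell (32.7% called, against 22.4% of all genes, median log2 fold change 0.05, all genes -0.02), and in the libraries labelled Mfn1-/- at day +8, 23 rose and 25 fell (46.2%, against 50.2% of all genes, median -0.11, all genes -0.07). The Mfn2-/- line had 21 that rose and 24 that fell at day -2 (43.3%, against 35.5% of all genes, median 0.04, all genes -0.02), and 13 that rose and 28 that fell at day +8 (39.4%, against 38.1% of all genes, median -0.09, all genes -0.03). At day 0 and day +3 in Mfn1-/- MEFs, 15 rose and 14 fell (27.9%), and 9 rose and 18 fell (26.0%), against 21.5% of all genes at both days. The pathway as a whole had calls in both directions in each comparison. In the counts by list that follow, the shares of all genes tested to set beside them are 12.5% higher and 9.98% lower in Mfn1-/- MEFs at day -2, 23.5% and 26.7% in the libraries labelled Mfn1-/- at day +8, 16.4% and 19.1% in Mfn2-/- MEFs at day -2, and 17.1% and 21.0% at day +8.

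Among 15 receptors and adaptors, 5 rose and 3 fell in Mfn1-/- MEFs at day -2, and 4 rose and 4 fell in Mfn2-/- MEFs (22.4% and 35.5% of all genes called). Gab1, a docking protein beside the Irs adaptors, rose in both, at 1489 ± 81.5 normalized counts in Mfn1-/- MEFs and 593 ± 91.0 in WT, and at 907 ± 67.6 in Mfn2-/- MEFs and 250 ± 1.35 in WT (SD, n = 3 each). At day +8, 4 rose and 6 fell in the libraries labelled Mfn1-/-, and 2 rose and 4 fell in Mfn2-/- MEFs (50.2% and 38.1% of all genes called). Sh2b2, an adaptor that binds the receptor, had log2 fold changes of 2.63 in the libraries labelled Mfn1-/- and -0.86 in Mfn2-/- MEFs at that day. Shc2, another adaptor, had 0 reads in the Mfn2-/- libraries at day -2, against 174 ± 14.3 normalized counts in WT.

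Of 12 further kinase subunits and kinases, 2 were called in Mfn1-/- MEFs at day -2, both lower, 1 rose and 6 fell in the libraries labelled Mfn1-/- at day +8 (median log2 fold change -0.62, all genes -0.07), and 1 rose and 4 fell at day -2 and 1 rose and 5 fell at day +8 in Mfn2-/- MEFs, beside 22.4%, 50.2%, 35.5% and 38.1% of all genes called. Pik3r3, another regulatory subunit gene, fell by 1.51 on the log2 scale at day -2 and by 2.27 at day +8 in Mfn2-/- MEFs. Pdpk1, whose product phosphorylates Akt, was at 1139 ± 287 in the libraries labelled Mfn1-/- at day +8 and 1996 ± 122 in WT.

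Of 18 restraints on the pathway, 5 rose and 3 fell in Mfn1-/- MEFs at day -2, and 2 rose and 4 fell in the libraries labelled Mfn1-/- at day +8. For the Mfn2-/- line 6 rose and 5 fell at day -2, and 5 rose and 3 fell at day +8. The 6 of 18 called at day +8 in the libraries labelled Mfn1-/- were a smaller share than the 50.2% of all genes, and the other shares of all genes were 22.4%, 35.5% and 38.1% in the order given. Grb10, which binds and inhibits the insulin receptor, was at 2817 ± 729 normalized counts in the libraries labelled Mfn1-/- at day +8 and 7917 ± 2121 in WT (log2 fold change -1.49). Ptprf, a receptor tyrosine phosphatase, was at 4969 ± 253 in Mfn2-/- MEFs and 1241 ± 44.8 in WT at day -2 (log2 fold change 2.00). Of 14 genes of the relay from Akt to the kinase complex mTORC1, 3 rose and 4 fell in the libraries labelled Mfn1-/- at day +8 and 4 were called in Mfn2-/- MEFs at that day, all lower, beside 50.2% and 38.1% of all genes called. Eif4ebp1, which encodes a repressor of translation that mTORC1 switches off, was at 5543 ± 2225 in the libraries labelled Mfn1-/-, against 1858 ± 157 in WT.

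Of 24 genes of GLUT4 vesicle traffic, 4 rose and 2 fell in Mfn1-/- MEFs at day -2 and 6 rose and 1 fell in the libraries labelled Mfn1-/- at day +8, and 2 rose and 2 fell at day -2 and 1 rose and 4 fell at day +8 in Mfn2-/- MEFs. Both day +8 counts were smaller shares of the list than the 50.2% and 38.1% of all genes called, and at day -2 the shares of all genes were 22.4% and 35.5%. Sort1, which encodes the sortilin that forms GLUT4 vesicles, rose in both lines before differentiation. It was at 1594 ± 50.7 normalized counts in Mfn1-/- MEFs and 240 ± 40.2 in WT at day -2 (log2 fold change 2.74), and at 1062 ± 69.1 in Mfn2-/- MEFs and 58.2 ± 6.999 in WT (log2 fold change 4.17). Tbc1d4, which encodes the Akt substrate that holds GLUT4 vesicles back, was at 384 ± 54.2 in Mfn1-/- MEFs and 99.8 ± 18.9 in WT at day -2. Of 6 other glucose transporters in the table, 2 rose and 2 fell at day -2 and 1 rose and 4 fell at day +8 in Mfn2-/- MEFs (median log2 fold change at day +8 -2.29, all genes -0.03). The 4 that fell at day +8 had means under 100 normalized counts in both groups. In the Mfn1-/- line 2 were called at day -2, both higher, and 1 rose and 2 fell in the libraries so labelled at day +8. Slc2a3 (GLUT3) stood out in Mfn2-/- MEFs, with 232 ± 23.5 normalized counts at day -2, against 30.3 ± 7.99 in WT, and with 174 ± 22.7 at day +8, against 30.8 ± 8.69 in WT.

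Of 15 FoxO factors and FoxO targets, 5 rose and 1 fell in Mfn1-/- MEFs at day -2 and 6 rose and 2 fell in the libraries labelled Mfn1-/- at day +8, and 4 rose and 3 fell at day -2 and 3 rose and 4 fell at day +8 in Mfn2-/- MEFs, beside 22.4%, 50.2%, 35.5% and 38.1% of all genes called. Pdk4, a FoxO target that restrains glucose oxidation, was at 1063 ± 422 normalized counts in the libraries labelled Mfn1-/- at day +8 and 223 ± 38.2 in WT (log2 fold change 2.19). Its level in Mfn2-/- MEFs was 0.709 ± 0.614 against 207 ± 24.8 in WT at day -2, and had 0 reads at day +8 against 248 ± 110 normalized counts in WT. Foxo6, another FoxO factor, was at 1744 ± 163 in Mfn2-/- MEFs and 12.0 ± 3.32 in WT at day -2. Sesn3, a FoxO target that restrains mTORC1, fell by 3.13 on the log2 scale in Mfn2-/- MEFs at day -2 and by 2.75 at day +8. All of these list calls were made at a limma adjusted p under 0.01.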

How the data were processed

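RNA sequencing of 36 mouse embryonic fibroblast libraries was analysed as 12 groups of 3. Per the study's methods and the labels, the authors used cutadapt for adapters, STAR for alignment to GRCm38, SAMtools for sorting and featureCounts for counts per gene (versions, annotation and strand not given in the sources used here). The deposited table holds the authors' normalized counts, a signal scaled by 1 factor per library that was set separately in 6 blocks of 6 libraries, each of a knockout line and its WT at 1 day. All deposited columns were mapped to a group, and those of the Mfn2-/- libraries to their group only, since their letters differ from the labels. The table had 16623 lines, and lines repeated with the same values (19 symbols) were kept once, which left 14761 genes. Dividing by each library's step gave whole reads for 100% of the values (tolerance 0.01 reads).

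The 14293 genes that reached 10 normalized counts in 3 or more libraries were fitted on log2(value + 1) by limma 3.58.1 (trend, robust) in R 4.3.3 with 1 mean per group. Fold changes are on this scale, which understates changes of low genes. Knockout and WT were compared on the authors' scale, and days on reads rescaled by TMM (edgeR 4.0.16), since blocks were scaled apart. A call is a Benjamini-Hochberg adjusted p under 0.01 over all genes tested. On the recovered reads the quasi-likelihood test of edgeR called 3119 to 7089 genes in the 6 comparisons of a knockout with WT, and limma 3066 to 7171. DESeq2 1.42.0, other scalings, pseudocounts of 0.5 and 5, other filters, fits of single comparisons and leaving out each library were tried too. The fits were tested on simulated data.

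Same-letter Mfn1-/- and WT libraries correlated in their deviations from the group means at r = 0.304 to 0.538 at day +3 and 0.185 to 0.285 at day +8, so letters were taken to pair libraries at these days. A block of the letter within each day was added after seeing the data. The replicate letter as a block was fitted on the Mfn1-/- line and WT libraries A to C alone, with letter effects shared by all days. Calls lost under it can therefore come from the block or from the libraries left out.

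The genes, lists and tests were chosen with earlier results of these data known. Beside the 10 genes, the text names up to 3 genes a list that rose and 3 that fell by largest log2 fold change among calls with a mean of at least 100, and for 5 genes the 3 most like in course. Adjusted p-values measure the spread between cultures of 1 line per genotype, and the depth given covers counting error only. Results of some genes of the lists are not reported here.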

Additional observations from a re-analysis of the deposited data

Results flagged for a closer look

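A test of the difference between effects set apart 15 values of the 10 genes, all as log2 differences from limma with adjusted p under 0.01. The effect in the Mfn1-/- line was larger at day +8, in the libraries so labelled, than at day -2 by 2.00 for Slc2a1 (limma adjusted p = 0.000313) and by 1.03 for Akt2 (3.62e-06), and differed by -0.81 for Pik3r1 (0.00163). In the Mfn2-/- line the same difference between days was -6.48 for Slc2a4 (limma adjusted p = 1.66e-06), -1.46 for Pik3r1 (2.07e-06) and -1.12 for Irs1 (0.00743). The Slc2a4 value rests in part on 15 reads in all in WT libraries D to F at day -2.

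The lines were compared with separate libraries of the same WT line. The Mfn1-/- effect minus the Mfn2-/- effect was -2.91 for Slc2a4 (limma adjusted p = 0.00881), 0.95 for Insr (0.00819) and -1.05 for Irs1 (0.00957) at day -2. At day +8, with the Mfn1-/- libraries taken by their label, it was 6.32 for Slc2a4 (limma adjusted p = 4.43e-07), 2.08 for Insr (2.75e-07), 1.95 for Slc2a1 (0.000248), 1.48 for Akt2 (1.81e-09), 1.04 for Irs2 (0.00491) and -0.85 for Pik3ca (0.000931). None of the values at day -2 was called by edgeR on the recovered reads. Leaving out 1 library at a time left at most 1 of the 10 genes called at that day.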

How the results depend on the processing

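The 69 gene results with a call were recomputed under other settings, which gave 1292 pairs of a result and a setting. The call and direction held in 1133 of these, the call was lost in 159, and none changed sign; 30 results held under every setting. Of 2418 such pairs of the 131 results without a call, 107 gave a call, and 1 turned a direction with a call: the Akt2 change between day +3 and day 0 in Mfn1-/- MEFs was -0.41 on the authors' scale (limma adjusted p = 0.00261), against 0.01 on TMM reads. That scale was set per block and put the median of all genes in this step at -0.39 (at -0.33 in Mfn1-/- and -0.25 in WT A to C between day +8 and day -2). Of the 159 lost calls, 89 arose in the 504 pairs that left out 1 library. Another 20 arose in the 24 pairs with the stricter thresholds of an adjusted p of 0.001 and a log2 change of 1.5. The cause of the other lost calls was not tested.

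The number of the 10 genes called moved as follows. Mfn1-/- against WT at day -2 gave 3, with 5 by DESeq2. Day 0 gave 2, with 4 by DESeq2, 6 by DESeq2 on the libraries of the comparison alone, 1 by edgeR, 1 without the filter, 1 with limma on those libraries alone, 0 with the replicate letter as a block and 4 with the block within each day. Day +3 gave 2, with 0 by DESeq2 and 0 by limma on those libraries alone, and 1 with the replicate block. Mfn2-/- against WT gave 6 at day -2, with 10 on those libraries alone, and 4 at day +8, with 7 by DESeq2 on those libraries alone. The difference between days gave 3 in the Mfn1-/- line (5 by DESeq2 on those libraries alone) and 3 in the Mfn2-/- line (8 by DESeq2 and 8 by limma on those libraries alone). The difference between the lines at day -2 gave 3, with 0 by edgeR. The change between days in Mfn2-/- MEFs gave 1, with 2 by DESeq2 and 3 by limma on those libraries alone. At an adjusted p of 0.001 with a log2 change of 1.5, Mfn1-/- against WT gave 0, 0, 0 and 2 at day -2, 0, +3 and +8, and Mfn2-/- against WT gave 1 at day -2 and 1 at day +8.

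With the letter as a block at day -2 and 0, where letters were not taken to pair libraries (same-letter r of 0.042 to 0.22 at day -2 and 0.067 to 0.161 at day 0), Irs2 at day -2 (limma adjusted p = 0.0118), and Akt2 (0.0391) and Foxo1 (0.0284) at day 0 lost their calls. Every library correlated best with its own letter at day +3 and day +8, and also at day 0, where the correlations were weaker. At day -2 every Mfn1-/- library did so too, while WT library A correlated better with Mfn1-/- library B (r = 0.101) than with A (0.042). No paired analysis was possible in the Mfn2-/- line because its columns carry none of the labels' letters.

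Leaving out each library in turn, the counts ranged from 2 to 3, 0 to 2, 1 to 3 and 7 to 7 for Mfn1-/- against WT at the 4 days, and stayed at 6 and 4 for Mfn2-/- against WT. They ranged from 3 to 4 and 2 to 3 for the differences between days in the Mfn1-/- and Mfn2-/- lines, and from 0 to 1 at day -2 and 5 to 7 at day +8 between the lines. For the changes between day +8 and day -2 they were 7 to 7 in Mfn1-/-, 0 to 1 in Mfn2-/-, 3 to 3 in WT A to C and 5 to 6 in WT D to F. Slc2a4 at day -2 rests on few reads, which limits its precision.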

Other observations

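Pik3ca is one of the neighbours of Mfn1 on chromosome 3, and the other genes within 300 kb moved in several ways. Usp13, which encodes a deubiquitinase 238.3 kb from Mfn1, was called higher in all 6 comparisons of a knockout with WT. Its log2 fold changes were 1.84, 2.39, 2.25 and 2.30 at day -2, 0, +3 and +8 in the Mfn1-/- line, and 1.70 and 2.51 at day -2 and +8 in the Mfn2-/- line (limma adjusted p under 0.01 in each). In the libraries labelled Mfn1-/- at day +8, Ndufb5, a gene of respiratory complex I, was at 2908 ± 1078 normalized counts against 856 ± 61.9 in WT, and Mrpl47, a gene of the mitochondrial ribosome, was at 668 ± 233 against 270 ± 25.5 in WT (SD, n = 3 each). In the same libraries Zmat3 had a log2 fold change of -1.14 and Zfp639 one of 0.55, both called by limma, while Gnb4 (-0.24) and Actl6a (-0.38) were not called. At the earlier days none of these genes but Usp13 and Pik3ca was called in Mfn1-/- MEFs. In Mfn2-/- MEFs calls were made for Zmat3 (-1.97 at day -2, -2.50 at day +8) and Zfp639 (-0.74 and -0.49). Gnb4 was called there at day -2 alone (-2.12), and Ndufb5, Mrpl47 and Actl6a were not called. The part of their place in these values was not tested. These genes were named for their place, after their values had been seen.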
